A study of Homo sapiens with 18 samples.

Results

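The long chain acyl-CoA synthetases are the 5 genes ACSL1, ACSL3, ACSL4, ACSL5 and ACSL6, taken by gene name from tables of 60675 genes. RNA was measured in U87, an established human glioblastoma line, in 18 libraries that form 6 groups of 3. Cells received ethanol, which was the vehicle control, or 100 nM of 1 of 5 rexinoids for 24 h: bexarotene, which the study also names as a control, or a compound given only by its code, A34, A41, A80 or A98. No group carried a genetic change, per the labels, and all libraries came from this 1 line. A rexinoid binds retinoid X receptors, nuclear receptors that pair with other receptors on DNA. The family was chosen by a known difference of ACSL3 between rexinoids and ethanol in these libraries. ACSL3 against ethanol is therefore given as a description, and its p-values are not read as support. The other members did not enter that choice and were tested. The rexinoids were also tested against each other, but for ACSL3 those tests reuse the rexinoid values behind the choice.

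These enzymes join a long chain fatty acid to coenzyme A, the step that lets a cell burn it, store it in triglyceride or build it into phospholipid. ACSL1 is the main form in fat, heart and liver, ACSL3 sits on the endoplasmic reticulum and on growing lipid droplets, and ACSL4 prefers arachidonic acid and other polyunsaturated fatty acids and is known for its part in ferroptosis. ACSL5 is prominent in intestine and liver and is found on mitochondria and endoplasmic reticulum, and ACSL6 is the form of brain and other neural tissue. ACSL3 is also abundant in brain.

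On GRCh38, as the deposited tables give it, ACSL3 (ENSG00000123983) lies on the plus strand at chr2:222860942-222944639. ACSL5 (ENSG00000197142) lies on the plus strand at chr10:112374018-112428380. ACSL1 (ENSG00000151726) lies on the minus strand at chr4:184755595-184826818, ACSL4 (ENSG00000068366) on the minus strand at chrX:109624244-109733403 and ACSL6 (ENSG00000164398) on the minus strand at chr5:131949973-132012243. Promoter windows are shown for ACSL3, whose difference drew the choice, for ACSL5, which differed most between A80 and A98, and for ACSL4, the most abundant member. Each is the 250 bases before a RefSeq start on GRCh38.p14 (the first start of ACSL5), 5′ to 3′ on the gene's strand. The ACSL5 window lies wholly inside the gene span given above, and the ACSL3 and ACSL4 windows lie partly inside theirs. Capitals mark the half-site that retinoid X receptors and their partners recognise, searched on both strands as the consensus AGGTCA, with GGGTCA as one variant, with AGTTCA as another and with GGTTCA as the last.
ACSL3, chr2:222860786-222861035: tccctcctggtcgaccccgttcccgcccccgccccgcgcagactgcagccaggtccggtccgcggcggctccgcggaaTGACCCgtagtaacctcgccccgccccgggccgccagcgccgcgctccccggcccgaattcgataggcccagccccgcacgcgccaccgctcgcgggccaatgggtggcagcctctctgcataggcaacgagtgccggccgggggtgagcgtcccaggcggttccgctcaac
ACSL5, chr10:112375018-112375267: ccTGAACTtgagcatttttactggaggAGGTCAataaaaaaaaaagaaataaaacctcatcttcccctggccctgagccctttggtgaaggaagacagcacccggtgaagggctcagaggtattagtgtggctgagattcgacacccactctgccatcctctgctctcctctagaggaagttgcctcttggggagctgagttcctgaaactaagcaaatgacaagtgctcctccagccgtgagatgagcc
ACSL4, chrX:109733258-109733507: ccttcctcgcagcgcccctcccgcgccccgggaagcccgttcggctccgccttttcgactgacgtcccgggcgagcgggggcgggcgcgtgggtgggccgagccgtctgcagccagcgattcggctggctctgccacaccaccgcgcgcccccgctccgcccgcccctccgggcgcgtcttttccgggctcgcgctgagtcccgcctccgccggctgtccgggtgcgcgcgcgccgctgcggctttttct
The ACSL3 window held 1 half-site, 172 to 167 bases before the start and in reverse orientation. The ACSL5 window held 2, at 248 to 243 and 223 to 218 bases before the start, and the ACSL4 window held 0. GC made up 75.2% of the ACSL3 window and 77.2% of the ACSL4 window, above the median of 58.0% over all windows, and the ACSL5 window lay below that median. The ACSL3 window also held a CCAAT box, 75 bases before the start, a motif that 32.0% of all windows hold on either strand. At least 1 half-site was present in 33.8% of the 35116 RefSeq promoter windows of this length, and in 8 of the 16 windows of the 5 members, of which several overlap. A pair of half-sites in direct repeat with 1, 4 or 5 bases between them was found in 0 of those 16, against 0.0968%, 0.074% and 0.074% of all windows. These matches describe letters in a short window, not binding.

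The aligned sequence behind a library came to between 1.31 and 3.89 gigabases. Values were deposited as TPM, a per-length share of each library's transcripts. A41 replicate 2 gave 56.1% of its TPM to ribosomal RNA, bexarotene replicate 1 gave 44.9% and ethanol replicate 2 gave 35.5%, and no other library gave more than 4.36%. Levels are therefore scaled TPM, which is TPM divided by a median-of-ratios factor per library. Differences are in log2(scaled TPM + 1), a scale that understates the change of low genes. A gene is called where its adjusted p, from limma with Benjamini-Hochberg adjustment over the 18269 genes tested, is under 0.05. The labels describe the cells as glial. Of the astrocyte markers read, CLU averaged 199 scaled TPM, GJA1 69.2, SLC1A3 20.9 and SOX9 11.5. GFAP averaged 0.788, ALDH1L1 0.476, SLC1A2 0.435, AQP4 0.0476 and S100B 0.00971. Whether replicate libraries came from separate cultures is not labelled, and the p-values reflect library-to-library spread only, which may be technical. In bulk RNA, a change per cell and a change in the mix of cells cannot be told apart.

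U87 cells expressed 4 of the 5 members, and ACSL4 and ACSL3 supplied most of the family's RNA. Over the 18 libraries ACSL4 averaged 72.6 scaled TPM (range 63.4 to 89.2), higher than 92.1% of the genes tested. ACSL3 averaged 37.4 (27.1 to 44.9), ACSL1 20.1 (16.6 to 23.9) and ACSL5 2.66 (1.80 to 3.50), in an order that held in each of the 18 libraries. ACSL6 stayed between 0.00074 and 0.217 scaled TPM, reached 1 TPM in 0 of 18 libraries and failed the filter, so it gives no usable comparison. Within a library the members' TPM can be set side by side because TPM is per length. In ethanol, ACSL4 made up 57.3% ± 0.601 (SD, n = 3) of the summed TPM of the family, ACSL3 24.0% ± 0.286, ACSL1 16.7% ± 0.724, ACSL5 1.86% ± 0.304 and ACSL6 0.0444% ± 0.0200.

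**Figure D1:**
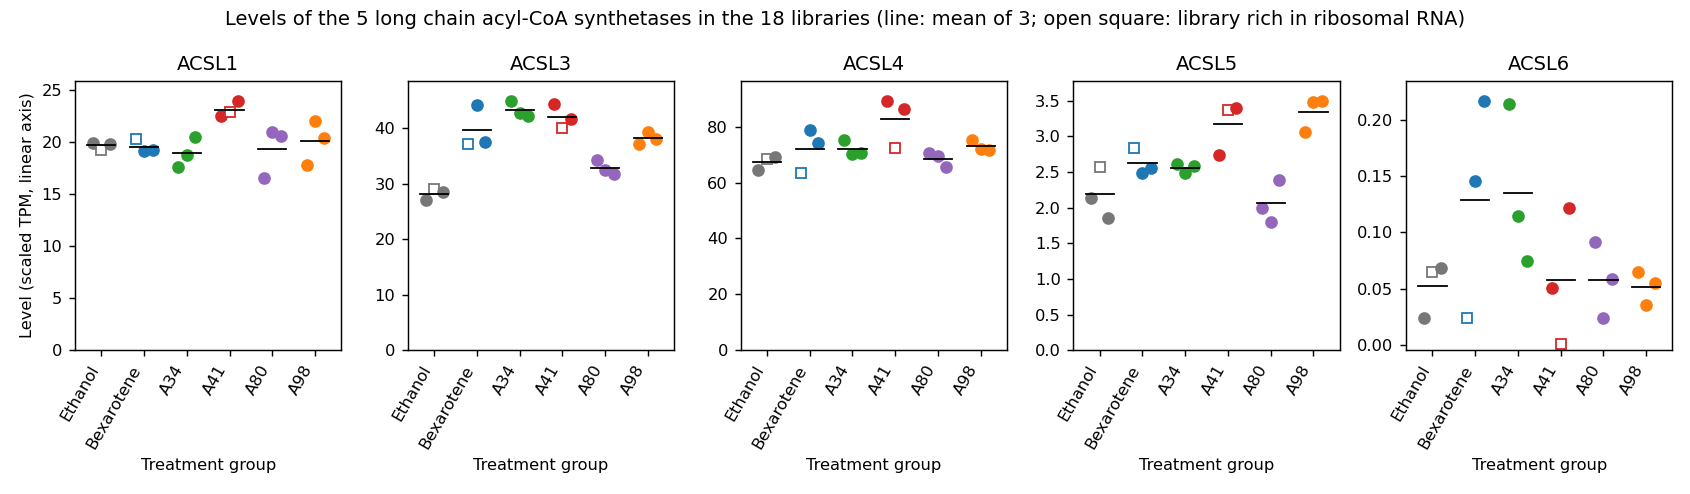
Scaled TPM of each member (vertical axis, linear, separate range per gene) in the 3 libraries of each treatment group (horizontal axis). Points are libraries, lines are group means and open squares are the 3 libraries rich in ribosomal RNA. ACSL3 lies above every ethanol library in all 15 rexinoid libraries, and ACSL6 stays below 0.217 throughout.

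ACSL3, the droplet-associated synthetase, was higher than in ethanol in all 15 rexinoid libraries, by 1.16 to 1.53 times in group means. In ethanol its level was 27.1, 29.0 and 28.5 scaled TPM. With bexarotene it was 37.2, 44.2 and 37.5, and with A34 it was 44.9, 42.8 and 42.3. With A41 it was 44.5, 40.0 and 41.6. With A80 it was 34.3, 32.4 and 31.8, and with A98 it was 37.2, 39.3 and 38.1. A80 gave the lowest of the 5 rexinoid groups, and its 3 libraries overlapped neither ethanol below nor any other rexinoid above. The group means ordered as ethanol 28.2 ± 0.981, A80 32.8 ± 1.29, A98 38.2 ± 1.04, bexarotene 39.6 ± 3.96, A41 42.0 ± 2.25 and A34 43.3 ± 1.41 (SD, n = 3 each). A98 and bexarotene overlapped, as did bexarotene with A41 and A34, and A41 with A34. On the log2 scale the differences from ethanol, which drew the choice of the family and are given as a description, were 0.60 with A34, 0.56 with A41, 0.47 with bexarotene, 0.42 with A98 and 0.21 with A80, each with an SE of 0.071, and their mean was 0.45. Without the 3 libraries rich in ribosomal RNA the bexarotene difference was 0.53. On TPM as deposited, relative to the median gene, the differences were 0.62 for A34, 0.50 for A41 and 0.44 for bexarotene.

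The share of ACSL3 in the family does not depend on the scaling. It was 23.9%, 24.4% and 23.9% in the ethanol libraries and between 26.0% and 31.9% in the rexinoid libraries. The highest ethanol library stood below the lowest rexinoid library, which was A80 replicate 2. By group, the share was 31.6% ± 0.453 with A34, 29.6% ± 1.33 with bexarotene, 28.4% ± 0.444 with A98, 27.9% ± 1.02 with A41 and 26.7% ± 0.915 with A80 (SD, n = 3). A34 thus had the highest share, above every library of the other groups. In A41 the share was lower than in A34 at a like ACSL3 level, since ACSL4, ACSL1 and ACSL5 were also at their highest or second highest means there. The summed level of the 5 members was 117 scaled TPM in ethanol, 151 in A41, and between 123 and 137 in the other 4 rexinoid groups. These shares rest on the ACSL3 values already described and are no separate support for them.

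**Figure D2:**
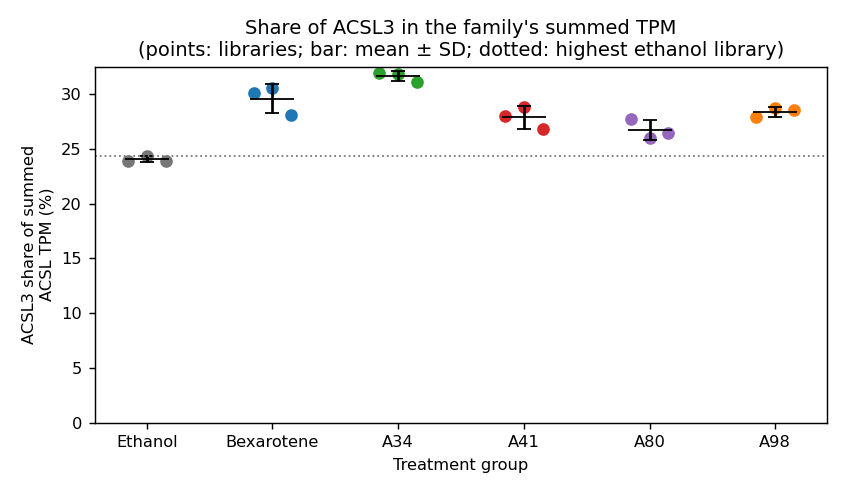
Share of ACSL3 in the summed TPM of the 5 members (vertical axis, percent, from 0) by treatment group (horizontal axis). Points are libraries, bars are mean and SD, and the dotted line is the highest ethanol library at 24.4%. All 15 rexinoid libraries lie above that line, with A34 highest at 31.6% on average.

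ACSL4, the synthetase of polyunsaturated fatty acids, differed less from ethanol and passed the threshold with 0 of 5 rexinoids. In ethanol it was 64.5, 68.3 and 69.2 scaled TPM. With A41 it was 89.2, 72.6 and 86.3, all above ethanol, with the lowest value in the library rich in ribosomal RNA. The log2 difference for A41 was 0.29 (SE 0.085, adjusted p = 0.19). With A34, at 75.4, 70.2 and 70.6, and with A98, at 75.4, 72.1 and 71.6, the libraries also lay above ethanol. The differences were 0.10 (95% interval -0.08 to 0.28) with A34 and 0.12 (-0.06 to 0.30) with A98. Bexarotene ranged from 63.4 to 78.7 and A80 from 65.5 to 70.6, and both overlapped ethanol. With A41 the call depended on the libraries used: without the 3 rich in ribosomal RNA the difference was 0.39 and was called (adjusted p = 0.046), as it was with array quality weights (0.32, adjusted p = 0.0079). The shares of all genes called in those settings are not reported here.

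ACSL5, the low mitochondrial and reticular form, had its highest means with A98 and A41, and 0 of its 5 comparisons with ethanol was called. It was 2.13, 2.58 and 1.86 scaled TPM in ethanol. With A98 it was 3.07, 3.48 and 3.50, and with A41 it was 2.74, 3.37 and 3.40, both without overlap with ethanol. The log2 differences were 0.45 (SE 0.13, adjusted p = 0.59) for A98 and 0.39 (adjusted p = 0.25) for A41. Bexarotene, at 2.48 to 2.83, A34, at 2.49 to 2.62, and A80, at 1.80 to 2.39, overlapped ethanol. With array quality weights the A41 difference was 0.49 and was called (adjusted p = 0.024). The share of all genes called with those weights is not reported here. The deposited coverage of ACSL5 was 0.205 to 0.747, but that value is not on a common scale across genes and is not read as depth. In ethanol replicate 1 it was 0.258 for ACSL5 at an FPKM of 1.25. There it was 0.253 for the antisense RNA ACSL3-AS1 at an FPKM of 0.140. ZDHHC6, on the opposite strand, overlaps 1730 of its 4236 exonic bases in GENCODE 29 and averaged 28.7 scaled TPM. The handling of strand by the authors' software is not given in the sources used, so whether reads of these 2 genes were told apart in the overlap is not known. ZDHHC6 itself differed from ethanol by between -0.06 and 0.05 on the log2 scale in the 5 comparisons and was called in 0.

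ACSL1, the form of fat, heart and liver, was close to ethanol with 4 of the 5 rexinoids. In ethanol it was 19.9, 19.2 and 19.8 scaled TPM. A41 gave 22.4, 22.9 and 23.9, above every ethanol library, with a log2 difference of 0.22 (SE 0.093, adjusted p = 0.41). Bexarotene, A34, A80 and A98 overlapped ethanol, with differences of -0.01 (95% interval -0.21 to 0.19), -0.05 (-0.25 to 0.14), -0.03 (-0.23 to 0.17) and 0.02 (-0.17 to 0.22). Over ACSL1, ACSL4 and ACSL5, 0 of 15 comparisons with ethanol was called by limma, and 4 had an unadjusted p under 0.05, of which 3 were with A41 and 1 with A98. Among all genes tested, 10.4% had an unadjusted p under 0.05 with A41, 6.63% with A98, 10.7% with A34, 9.41% with A80 and 5.75% with bexarotene. Genes called made up 0.755% of those tested for A41, 0.0821% for A34, 0.0547% for bexarotene, 0.0438% for A80 and 0.0328% for A98. For the mean of the 5 rexinoids, where 0.203% of genes were called, the differences were 0.23 for ACSL5 (adjusted p = 0.43), 0.12 for ACSL4 (0.55) and 0.03 for ACSL1 (0.92).

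Counted by libraries alone and leaving out ACSL3, the 3 libraries of A41 lay above all 3 ethanol libraries for 3 of the 3 other members tested. This held for 2 of 3 with A98 (ACSL4 and ACSL5), for 1 of 3 with A34 (ACSL4) and for 0 of 3 with bexarotene and with A80. Among all genes tested, 8.27% had this pattern with A41, 8.49% with A98, 8.22% with A34, 6.88% with bexarotene and 8.60% with A80. The 5 comparisons share the same 3 ethanol libraries.

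**Figure D3:**
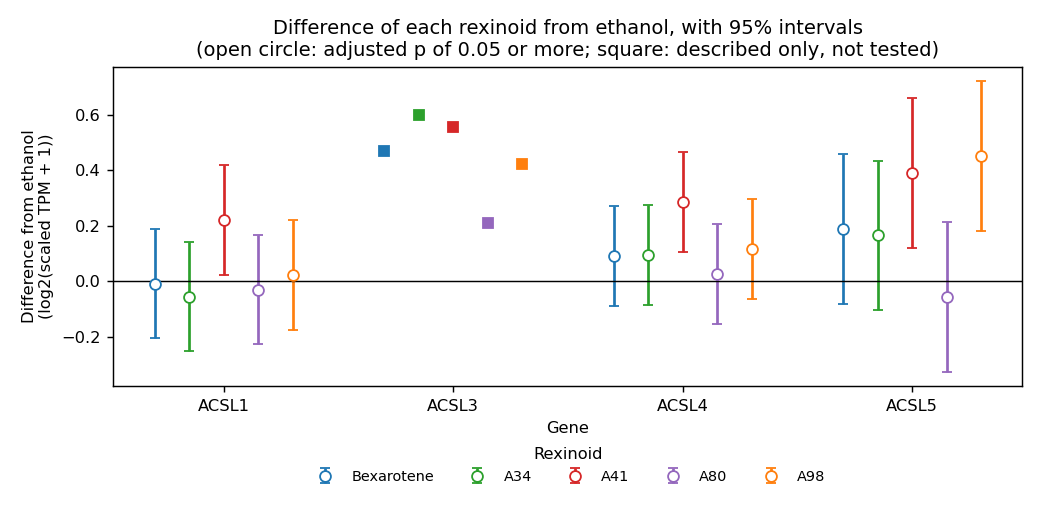
Difference of each rexinoid from ethanol in log2(scaled TPM + 1) (vertical axis) for the 4 members that passed the filter (horizontal axis), with 95% intervals from limma for ACSL1, ACSL4 and ACSL5. Open circles are tests that did not pass the threshold, 15 of 15. Squares are ACSL3, which is given as a description without an interval. ACSL1 lies within 0.05 of 0 with bexarotene, A80 and A98.

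Setting the rexinoids against each other asks whether compounds at 1 dose and 1 time differ in this family. The differences themselves use no ethanol library, but all 18 libraries set the estimate of spread behind their errors and p-values. For ACSL3 the rexinoid values are those behind the choice of the family, so its tests here are not independent of that choice. All 10 pairs were compared for the 4 members, and 0 of the 40 tests passed, with 15 at an unadjusted p under 0.05. Of those 15, 5 were tests of ACSL3. The 10 pairs come from the same 5 groups, so these tests are not independent and 1 low or high group enters several of them. Among all genes tested, between 3.55% and 7.95% had an unadjusted p under 0.05 in a pair. Over all 5 rexinoids together, an F test gave an unadjusted p of 0.00055 for ACSL3 (adjusted p = 0.23 in limma), 0.0086 for ACSL5 (0.56), 0.062 for ACSL1 (0.81) and 0.073 for ACSL4 (0.81), where 0.0657% of genes tested were called. The largest ACSL3 difference was A34 over A80, at 0.39 (95% interval 0.24 to 0.54, adjusted p = 0.62). For that pair 0% of all genes tested were called. A41 exceeded A80 by 0.35 (0.20 to 0.50, adjusted p = 0.080), and A80 was below bexarotene by a log2 difference of -0.26 (-0.41 to -0.11, adjusted p = 0.80) and below A98 by -0.21 (-0.36 to -0.06, adjusted p = 1.0). In each of these 4 pairs the 3 A80 libraries lay below the other 3, as they did for 3.75% of all genes tested against A34, 5.16% against A41, 5.98% against bexarotene and 5.16% against A98. Against bexarotene, ACSL3 differed by 0.13 with A34 (-0.02 to 0.28), 0.09 with A41 (-0.07 to 0.24) and -0.05 with A98 (-0.20 to 0.10). These intervals leave room for differences of that size and do not show equal action.

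For ACSL5, A80 was below A98 by -0.51 (95% interval -0.78 to -0.24, adjusted p = 1.0) and A41 was above A80 by 0.45 (0.18 to 0.72, adjusted p = 0.29), each with libraries that did not overlap, as for the same 5.16% of genes. For ACSL4, A41 was above A80 by 0.26 (0.08 to 0.44, adjusted p = 0.40). For ACSL1, A34 was below A41 by a log2 difference of -0.28 (-0.47 to -0.08, adjusted p = 0.48), and A41 was above A80 by 0.25 (0.05 to 0.45, adjusted p = 0.52). A34 and bexarotene had nearly equal means of ACSL4 (72.0 and 72.1) and of ACSL5 (2.56 and 2.62), with intervals of -0.18 to 0.18 and -0.29 to 0.25. Genes called among all tested were few in every pair: 0% for A34 and for A80 against bexarotene, 0.115% for A41 and 0.00547% for A98 against bexarotene, 0.0712% for A34 against A41, 0.00547% for A34 against A98, 0.126% for A41 against A80, 0.131% for A41 against A98 and 0.00547% for A80 against A98. With libraries weighted by their quality, ACSL3, ACSL4 and ACSL5 were called for A41 against A80 (adjusted p = 0.0052, 0.015 and 0.013). Leaving out bexarotene replicate 2, which enters through the shared estimate of spread, called 1 of the 24 tests among coded rexinoids. The shares of all genes called in these settings are not reported here, so these calls are not read as a result about the family.

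**Figure D4:**
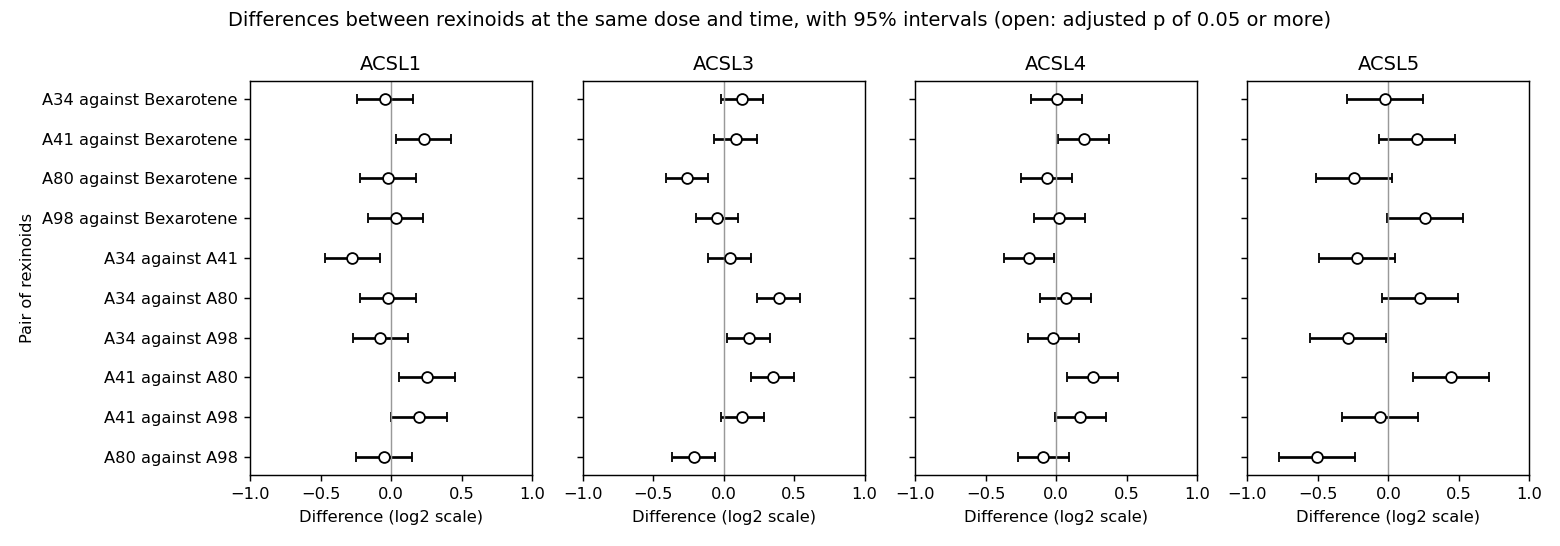
Differences between pairs of rexinoids in log2(scaled TPM + 1) (horizontal axis) for the 10 pairs (vertical axis) and the 4 members tested, as the first-named compound minus the second, with 95% intervals from limma. All points are open because 0 of 40 passed the threshold. The widest ACSL3 difference is A34 against A80, at 0.39.

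Genes that run inside the members' spans were looked at because reads could be shared. ACSL3-AS1, an antisense RNA at chr2:222917387-222919363 on the minus strand, overlaps 607 exonic bases of ACSL3. It averaged 0.238 scaled TPM in ethanol, 0.990 with bexarotene and 0.647 with A34, reached 1 TPM in 2 of 18 libraries and failed the filter. In the fit without a filter it was called in 0 of 5 comparisons with ethanol (adjusted p = 0.91 for bexarotene, where its unadjusted p was 0.012). Its level stayed at most 1.56 scaled TPM where ACSL3 was never below 27.1. KCNE5, on the strand of ACSL4, shares 78 exonic bases with it and averaged 0.527 scaled TPM. AL157786.1, on the strand opposite ACSL5, overlaps 1654 of its exonic bases and averaged 0.215 scaled TPM. AC034228.3, on the strand of ACSL6, overlaps 12516 of its 13013 exonic bases and averaged 0.00945. ACSL6-AS1, AC034228.1 and AC034228.2, on the strand opposite ACSL6, were listed at 0 in all 18 libraries.

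The genes most like ACSL3 across the 18 libraries, by Pearson's r of log2(scaled TPM + 1) among 13476 genes with a mean of at least 2, were ABCA1 (r = 0.93), which exports cholesterol, and SCD (0.92), which makes monounsaturated fatty acids. They were followed by the long non-coding RNA OLMALINC (0.89), IFT81 (0.84), the retinol dehydrogenase RDH11 (0.84), the phosphatidate phosphatase LPIN1 (0.83), the transcription factor MAF (0.82) and the calcium channel subunit CACNB3 (0.80). The libraries of a group share their treatment, and ethanol stands apart, so r was also taken over the 15 rexinoid libraries: ABCA1 then had 0.83, SCD 0.82 and LPIN1 0.70, and MAF was lowest of the 8 at 0.56. ABCA1 averaged 23.0 scaled TPM in ethanol, 42.0 with A80 and 66.9 with A34, and SCD averaged 45.8, 108 and 178. Both had A80 as the lowest and A34 as the highest rexinoid group, as ACSL3 did. They were picked for their r with ACSL3 over these same libraries, so a like order of groups follows in part from that choice.

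The genes most like the other members were different ones. For ACSL5 the first were BTN2A2 (r = 0.84) and LPCAT3 (0.83), which loads polyunsaturated acyl chains into phospholipid, followed by PATL1 (0.81), SMARCC2 (0.80), a Y_RNA copy (0.77), the acyl-CoA binding protein ACBD6 (0.76) and H2AX (0.75). For ACSL4 they were APBB2 (0.88), APPL1 (0.86), LXN (0.86), the receptor kinase MET (0.86), the focal adhesion kinase PTK2 (0.83), SKAP2 (0.83), SERPINB1 (0.82) and METTL9 (0.82). For ACSL1 they were the cytokine CSF1 (0.85), DLC1 (0.85), FPR1 (0.84), CDC20 (0.83), ATOH8 (0.82), SMARCB1 (0.82), NETO2 (0.81) and the chemokine CCL2 (0.81). Between members, r was highest for ACSL3 with ACSL4 (0.65) and lowest for ACSL3 with ACSL1 (0.14). These are descriptions over 18 libraries that share groups, with no test.

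**Figure D5:**
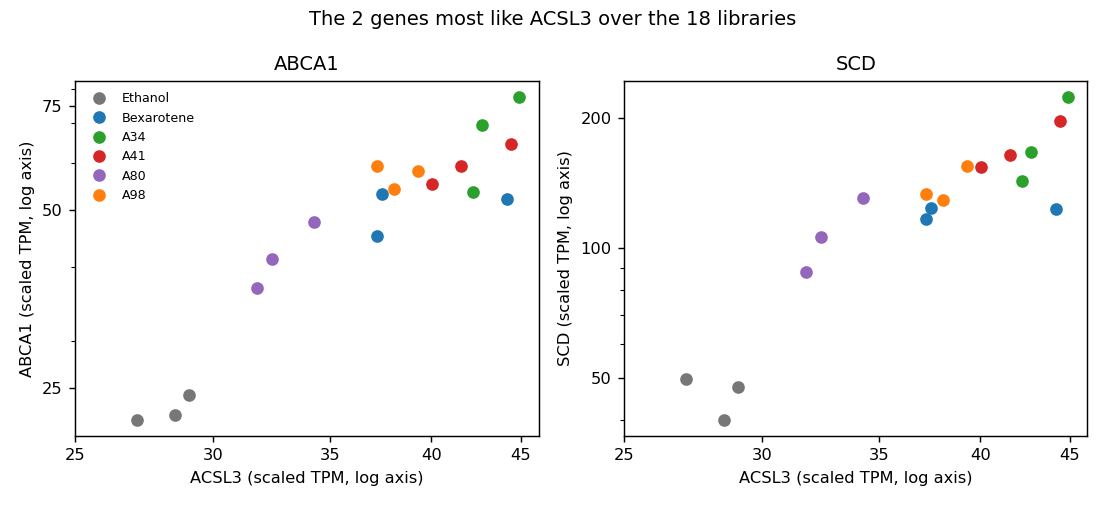
ABCA1 and SCD (vertical axes, scaled TPM, log) against ACSL3 (horizontal axis, scaled TPM, log) in the 18 libraries, coloured by treatment. The 3 ethanol libraries sit at the lower left, with ACSL3 between 27.1 and 29.0. Along the horizontal axis the 3 A80 libraries come next, and the other rexinoids lie further right. On the vertical axes A80 overlaps bexarotene: SCD reached 130 with A80 and was 117 to 124 with bexarotene.

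Other genes that make, use or bind acyl-CoA were read from 8 lists, of which 70 genes passed the filter. With A41 the lipid droplet list had 1 gene called, MGLL, which splits monoglyceride. It fell from 53.8 ± 4.80 scaled TPM in ethanol to 39.8 ± 2.08 (SD, n = 3), a log2 difference of -0.42 (SE 0.088, adjusted p = 0.036), with no overlap. It was not called without the libraries rich in ribosomal RNA (-0.53, adjusted p = 0.054). No other list gene was called by limma with any rexinoid, while an unadjusted p under 0.05 was found for 15 with A41, 8 with A34, 7 with A80 and 6 each with A98 and bexarotene. These are 21.4% of the list genes with A41, beside 10.4% of all genes tested, and 11.4% beside 10.7% with A34. With A98 and with bexarotene they are 8.57%, beside 6.63% and 5.75%, and with A80 the list's share was near the 9.41% of all genes. The lists were chosen with earlier results of these data known, so these shares are a description and no independent support. The median log2 difference over the 70 genes was 0.07 with A41, 0.06 with A98, 0.05 with A80, 0.04 with bexarotene and 0.03 with A34, beside medians of all genes tested that lay within 0.01 of 0.

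Of the 10 other acyl-CoA synthetases tested, 0 was called, and 7 or 8 of them had a difference above 0 with each rexinoid, with medians of 0.06 (A34) to 0.16 (A41) on the log2 scale. They include the acetate enzyme ACSS2 (21.9 scaled TPM over the 18 libraries), the fatty acid transport protein SLC27A4 (16.6) and the acetoacetate enzyme AACS (12.7). Among 7 thioesterases, which undo the synthetase reaction, ACOT7 (51.8), ACOT8 (26.9) and ACOT9 (22.1) were the highest, and 0 was called. Of 11 genes of glycerolipid synthesis, GPAM (102), GPAT3 (44.8) and AGPAT1 (37.6) led and 0 was called. LPIN1, of the same list, averaged 15.2 in ethanol and 18.6 with A41 without a call (adjusted p = 0.19). Its mean was 18.2 with A98, 17.9 with A34, 17.8 with bexarotene and 16.0 with A80. Of 11 genes of phospholipid remodelling, MBOAT7 (86.9), MBOAT2 (54.0) and LPCAT1 (32.5) led. LPCAT3 was 12.4 in ethanol and 18.2 ± 3.57 (SD, n = 3) with A41, a difference of 0.50 with an adjusted p of 0.058. It was 17.2 ± 0.485 with A98, 15.9 ± 0.219 with bexarotene, 14.6 ± 0.803 with A34 and 12.5 ± 1.46 with A80. Of 12 lipid droplet genes, PLIN3 (116), AUP1 (106) and MGLL (50.6) led. Of 8 genes of the carnitine shuttle, which carries acyl groups into mitochondria, CPT1A (46.7), CRAT (30.6) and SLC25A20 (15.9) led. CRAT was 26.9 in ethanol and 35.5 with A41 (0.39, adjusted p = 0.053), and its means with the other rexinoids lay between 29.6 and 31.4. Of 7 acyl-CoA binding proteins DBI (233), SCP2 (43.5) and ACBD3 (31.0) led, and of 4 genes of sterol esterification LIPA (44.6), NCEH1 (41.6) and SOAT1 (10.9), with 0 called in either.

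The replicate numbers of the titles could mark a shared day, and the choice of the family did not use them. An F test of the number called 1.01% of all genes and 0 of the 4 members in limma, with adjusted p-values of 0.63 for ACSL1, 0.90 for ACSL3, 0.99 for ACSL4 and 0.96 for ACSL5, and unadjusted p-values that were all above 0.05. The main model held no term for the number. Its largest share of genes called for a rexinoid against ethanol was 0.755%, with A41.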

How the data were processed

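The tools were STAR, MultiQC and StringTie and the build was GRCh38, per the submitters' processing notes; the sources used here give no version, strand setting or annotation release. Ribosomal RNA was depleted with a KAPA RiboErase kit before paired sequencing, per the labels' protocols. Each library has 1 deposited table with TPM and FPKM, which the authors computed per the file headers, and a coverage value whose ratio to FPKM differs between genes. Without read counts, tests were made on a log scale. The maximum ratio of coverage to FPKM in a library gave the aligned bases, 1.31 to 3.89 gigabases (median 2.08), a depth that limits ACSL5 and ACSL6 most.

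Groups and replicate numbers came from the treatment labels and titles; the numbers in the names of the deposited tables differ in part from the titles, and those names give the A98 group the code A90. Its labels were followed, so each A98 value rests on that assignment. TPM was divided by median-of-ratios factors (0.417 to 1.20) from 16349 genes above 0 in every library. The 18269 genes that reached 1 TPM in 3 or more libraries were fitted as log2(scaled TPM + 1) with limma 3.58.1 in R 4.3.3, all 18 libraries in 1 model with 12 residual degrees of freedom and a trend on mean level. P-values of differences are two-sided and every adjusted p is Benjamini-Hochberg over all genes tested. The steps were tested on simulated data. No 2 libraries held identical values.

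The members and lists were chosen with earlier results of these data known. Named genes were the members; in each list the called genes and the 3 highest; the 8 genes most like each tested member, of which 1 is not reported here; and genes that overlap or neighbour a member. Promoters came from the RefSeq table (GRCh38.p14), which held 16 starts for the 5 members; exon overlaps came from GENCODE 29. Same-numbered libraries deviated from their group means with correlations of -0.36 to 0.31, and only A41 against ethanol had all 3 above 0.1 (0.17, 0.31 and 0.12); in both of those groups replicate 2 is rich in ribosomal RNA. Alternatives were other pseudocounts, scalings, filters, weights, moderation, a replicate block and leaving out libraries.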

Additional observations from a re-analysis of the deposited data

How the results depend on the processing

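Of 702 alternative values for single members, those of ACSL3 against ethanol included, 666 kept their direction and their side of the threshold. The number of member calls against ethanol was 3 of 20, each of them ACSL3, for which the family was chosen, so the count is a description; it was 0 on TPM as deposited, 0 with only the libraries of the 2 groups compared and 6 with array quality weights, and 2 to 3 with 1 library left out. Array weights also called 3 of 24 tests among coded rexinoids and 1 of 4 F tests (ACSL3), and leaving out 1 library gave 0 to 1 of those 24. The shares of all genes called in these settings are not reported here, so the counts are not read as results about the family. For the mean of the 5 rexinoids the ACSL3 difference was 0.45 on TPM as deposited and 0.43 to 0.47 with 1 library left out. With bexarotene the ACSL3 difference was 0.53 without the libraries rich in ribosomal RNA and 0.49 under the block from file names. With A98 it was 0.42 with array weights and 0.42 with a filter of at least 5 TPM. The cause of the changes between settings was not tested. Relative to ethanol, TPM as deposited moved the median gene by -0.16 with bexarotene, -0.27 with A41 and 0.15 with A98, and its differences are given relative to that median.

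The sign turned only for differences that were never called. ACSL1 with bexarotene was 0.0249 under the block from file names and ranged from -0.0343 to 0.0069 with 1 library left out. ACSL1 with A80 was 0.0387 with array weights and 0.0030 under that block, and ranged from -0.0872 to 0.0722. ACSL1 with A98 ranged from -0.0425 to 0.10 and ACSL4 with A80 from -0.0042 to 0.0582. ACSL5 with A80 was 0.0298 without the libraries rich in ribosomal RNA and 0.0128 under the block from file names, and ranged from -0.13 to 0.0298. ACSL3 in A98 against bexarotene ranged from -0.0895 to 0.0316.

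With the replicate block of the titles the number of list-gene calls was 3 in place of 1. HILPDA was added for A34 (adjusted p = 0.042 in limma) and for A80 (0.041), and is named here after its values were seen. HILPDA was 89.1 ± 96.9 scaled TPM with A34 (SD, n = 3), and under the block from file names it was not called (adjusted p = 0.13 and 0.14). The numbers pair libraries by the check only for A41 against ethanol, where MGLL had an adjusted p of 0.020 under the block. Without the 3 libraries rich in ribosomal RNA 0 list genes were called. Depth limits ACSL5 and ACSL6 most, as the members of lowest level.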
